A study of Mus musculus with 18 samples.

Results

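The 26S proteasome is built from the products of the Psm genes, and the levels of these genes were compared across 2 tissues and the genotypes of mice carrying a knock-out of Otub2, which encodes a deubiquitinase. The members were all genes whose symbols consist of Psm, a letter from a to g and a number, and there were 48 among the 55291 genes of each table. The mice were described as grown under normal conditions, and the sources used here give neither their age nor the part of Otub2 that is deleted. WT mice carried OTUB2 +/+, HET mice OTUB2 +/- and HOM mice OTUB2 -/-, with no other allele or treatment named. Pancreas was sequenced from 3 WT (WT 11 and WT 12 male, WT 16 female), 5 HET (HET 9 and HET 11 female, HET 10, HET 15 and HET 16 male) and 3 HOM mice (HOM 10, HOM 19 and HOM 21, all male). Liver was sequenced from 2 WT (WT 1 and WT 2) and 5 HET mice (HET 1 to HET 5), with no sex given and no HOM group. The labels do not say whether each sample was a separate animal, so p-values measure only the spread between these samples.

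The proteasome degrades proteins that carry ubiquitin chains. Its barrel, the 20S core, has outer rings of alpha subunits (Psma genes), which gate the entrance, and inner rings of beta subunits (Psmb genes), of which Psmb5, Psmb6 and Psmb7 cut peptide bonds. Interferon and immune cells exchange these for Psmb8, Psmb9 and Psmb10, which make the immunoproteasome and favour peptides that fit MHC class I molecules. The 19S cap consists of a base with ATPases (Psmc genes) that unfold substrates, scaffold and ubiquitin-binding subunits of the base (Psmd1, Psmd2 and Psmd4), and a lid with the deubiquitinase Psmd14. Psme genes encode other caps (activators), Psmf1 an inhibitor, Psmg genes chaperones of core assembly, and Psmd5, Psmd9 and Psmd10 chaperones of base assembly.

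RefSeq promoter windows (GRCm38.p6, 250 bases before to 50 after the start) were matched for 40 of the 48 genes, and 4 are printed because the results turn on those genes: Psmb6 (chr11:70525107-70525406, plus strand) was the highest member in liver, Psmd4 (chr3:95042565-95042864, minus strand) had the lowest adjusted p of any member in pancreas, Psma1 (chr7:114276067-114276366, minus strand) was among the highest in most pancreata but low in liver, and Psmb9 (chr17:34187281-34187580, minus strand) stands for the immunoproteasome. Sequences run 5′ to 3′ on the gene's strand, and capitals mark matches on either strand to CCAAT (the CCAAT box), TGACNNNGC (the antioxidant response element), the interferon-stimulated response element (GAAA, any 2 bases, GAAA) or TTCNNNGAA (the gamma-activated sequence).
Psmb6: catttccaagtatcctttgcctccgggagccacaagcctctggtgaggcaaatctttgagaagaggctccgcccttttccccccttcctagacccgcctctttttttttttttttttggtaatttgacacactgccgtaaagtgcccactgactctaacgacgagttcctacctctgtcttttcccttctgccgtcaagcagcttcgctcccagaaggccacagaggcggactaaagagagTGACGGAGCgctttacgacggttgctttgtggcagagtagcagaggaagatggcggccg
Psmd4: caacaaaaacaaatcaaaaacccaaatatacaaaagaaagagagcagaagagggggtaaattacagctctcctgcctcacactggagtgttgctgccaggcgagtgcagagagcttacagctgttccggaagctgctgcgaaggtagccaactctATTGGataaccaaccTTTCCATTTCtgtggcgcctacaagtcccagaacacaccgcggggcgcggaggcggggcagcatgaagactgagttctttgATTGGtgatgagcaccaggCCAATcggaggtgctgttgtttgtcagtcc
Psma1: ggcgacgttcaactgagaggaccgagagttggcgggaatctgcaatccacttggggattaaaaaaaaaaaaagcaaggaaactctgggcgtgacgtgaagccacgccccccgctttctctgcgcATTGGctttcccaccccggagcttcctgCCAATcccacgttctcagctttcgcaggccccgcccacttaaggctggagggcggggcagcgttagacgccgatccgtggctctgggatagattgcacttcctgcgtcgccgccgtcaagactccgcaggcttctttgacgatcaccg
Psmb9: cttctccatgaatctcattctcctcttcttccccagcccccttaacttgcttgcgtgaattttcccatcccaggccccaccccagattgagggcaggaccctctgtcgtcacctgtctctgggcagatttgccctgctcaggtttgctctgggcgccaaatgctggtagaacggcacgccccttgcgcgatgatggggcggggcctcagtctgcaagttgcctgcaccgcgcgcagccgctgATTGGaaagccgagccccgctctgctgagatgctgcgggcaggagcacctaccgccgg

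The Psmb6 window held 1 match, to TGACNNNGC, which Psmb5 also had. The windows of Psmd4 and Psma1 held 3 and 2 CCAAT matches, Psmd4 also 1 match to the interferon-stimulated element, and that of Psmb9 held 1 CCAAT match, with none to either interferon motif. CCAAT was found in 14 of the 40 member windows (35%) against 38.8% of all 16521 windows, TGACNNNGC in 6 (15%) against 13.3%, the interferon-stimulated element in 5 (12.5%: Psmb3, Psmd4, Psmd9, Psme1 and Psmg4) against 3.47%, and TTCNNNGAA in 3 (7.5%: Psmb8, Psmd2 and Psmg1) against 7.81%. Among the alpha genes, 5 of 7 windows held CCAAT. RefSeq and GENCODE starts differ for some members: the Psmd9 window lies 58777 bases from the GENCODE start, those of Psmd5, Psmb11 and Psmf1 4006, 3877 and 2876 bases, and the printed Psmb9 window 434 bases. No 2 of the motifs overlapped in the printed windows, a match describes letters only, and a window without one says nothing about a factor.

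Library totals ran from 155201 to 1686234 counts in liver and from 49502 to 1326541 in pancreas. Livers carried hepatocyte transcripts (5 markers, 5.85 to 8.12% of counts, all 5 detected in each library). Of these, Fgb had only 4 counts summed over the WT livers and 22 over the HET livers. HET 11 and HET 16, the deepest pancreata, stood apart from the other 9: stomach mucosa markers made up 19.0 to 22.2% of their counts against 0.00184 to 2.51%, and acinar enzymes 3.80 to 14.2% against 0.00158 to 1.04%. In the 3 WT pancreata acinar enzymes reached only 0.00158 to 0.0143% and islet hormones 0 to 0.0419%, so the markers that define the labelled tissue were nearly absent there and the acinar share was no higher than in liver (0.00379 to 0.0192%). The lack was not confined to WT: HET 15 had 0.0043% acinar and 0% islet markers. The acinar signal of HET 11 and HET 16 rested on 2 of the 7 markers, nearly all of it Clps, and Prss2 had 0 counts in every library. Olfactory and vomeronasal receptor genes held 0.233 to 0.695% of counts in the other 9 pancreata, while HET 11 and HET 16 had 0.0147 to 0.0252%, and livers 0.000652 to 0.0111%. Otub2 itself had 3, 4 and 3 counts in the WT pancreata, 1 in HET 16, 1 in HOM 10 and 0 in the other 6, and 0 to 2 in each liver; whether these 3′ counts lie in the deleted part is not known, so they check little about the labels.

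Together the 48 genes held under 1% of the counts in every library, with a larger share in each liver than in any pancreas. In liver they held 0.517% of counts in WT 1 and 0.460% in WT 2 (0.488% ± 0.0401, SD, n = 2) and 0.500 to 0.645% in the 5 HET livers (0.549% ± 0.0580, SD, n = 5), spread over 42 to 46 detected members. In pancreas the 3 WT libraries averaged 0.306% ± 0.130 (SD, n = 3), the 5 HET libraries 0.351% ± 0.0700 (SD, n = 5) and the 3 HOM libraries 0.212% ± 0.0799 (SD, n = 3), and the ranges of the 3 groups overlapped. HET 11 and HET 16, at 0.271 and 0.416%, lay within the range of the other 9 (0.120 to 0.443%), and HET without them stood at 0.355% ± 0.0668 (SD, n = 3). This depends on the scaling: as a share of the TMM-scaled library size used in the tests, HET 11 and HET 16 had 1.97 and 2.02%, above the 0.0973 to 0.366% of the other 9. HET 11 and HET 16 held counts of 35 and 37 members, and the other 9 pancreata of 9 to 22. The tissues come in separate tables, so their levels are set side by side without a test.

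**Figure D1:**
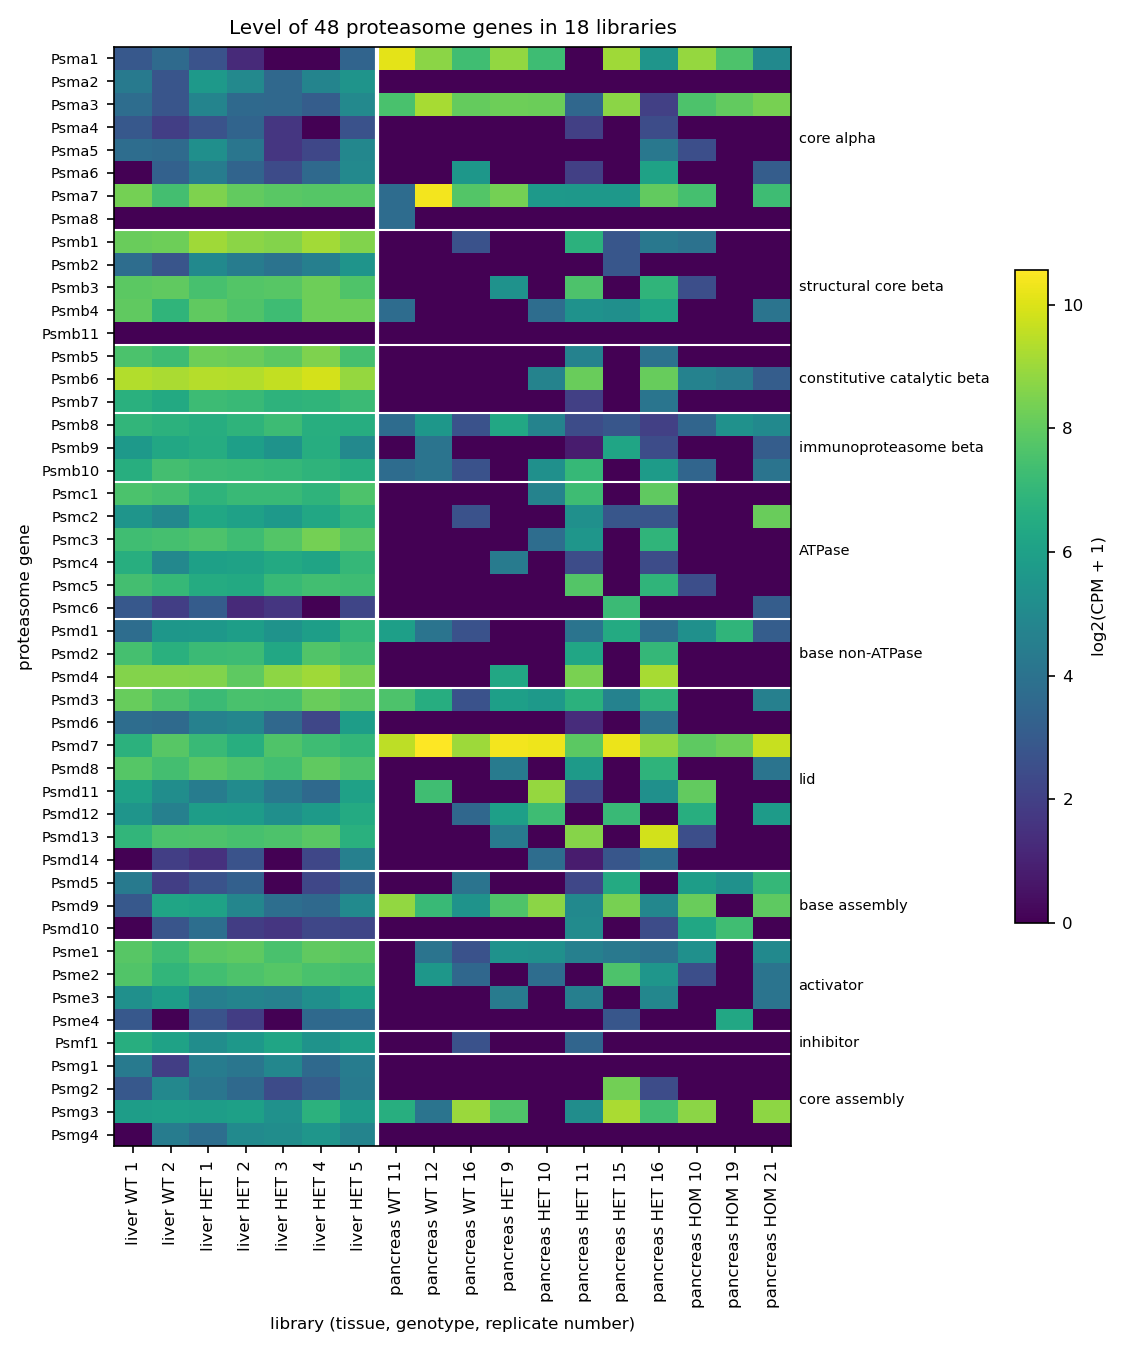
Level of each of the 48 proteasome genes (rows, by role) in the 18 libraries (columns), as log2(CPM + 1), where CPM is the count scaled to a library total of 1000000. The 7 livers share one pattern, HET 11 and HET 16 show much of it, and in the other 9 pancreata a few rows such as Psmd7, Psma1 and Psma3 are bright while most are dark.

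In liver Psmb6, Psmb1 and Psmd4 led. These counts come from the 3′ ends of transcripts and do not scale with transcript length, so CPM values of different genes can be compared. Psmb6 (chromosome 11, 70525367 to 70527858, plus strand of mm10), the caspase-like catalytic subunit, averaged 678 ± 144 CPM (SD over 7 livers) and stood at place 213 among all genes. Psmb1 followed at 406 ± 102 and Psmd4, the ubiquitin receptor of the base, at 387 ± 89.5 CPM, ranges that overlapped each other. Behind them Psma7 (257), Psmb5 (243), Psmb3 (230), Psmb4 (225), Psme1 (217), Psmd3 (214), Psmc3 (207) and Psmd8 (204 CPM) differed from neighbour to neighbour by less than their SD of 33.2 to 76.3 CPM. At the low end Psma1 (4.94), Psma4 (4.60), Psmd10 (4.45) and Psmc6 (3.42 CPM) rested on 14 to 25 counts over 7 livers, and Psma8, the testis alpha subunit, and Psmb11, the thymus catalytic subunit, had 0. Psmb11 had 0 counts in pancreas too, and Psma8 had 1, in WT 11.

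Levels within the alpha class were uneven in liver. Each encodes a different seat of the same ring, yet Psma7 averaged 257 ± 70.0 CPM and the next, Psma2, 26.7 ± 16.2 CPM (SD, n = 7), with no overlap between their ranges (166 to 370.4 against 5.84 to 50.3 CPM). The 8 alpha genes together held 4.16 to 9.31% of proteasome counts in the 7 livers, against 14.7 to 18.1% for the 4 structural beta genes and 14.9 to 22.1% for the 3 constitutive catalytic genes. The lid held 14.8 to 18.4%, the ATPases 9.85 to 15.5%, the non-ATPase base subunits 9.10 to 12.5% and the activators 7.30 to 9.37%. The lid deubiquitinase Psmd14 was scarce, with 39 of its 46 counts in HET 5. Of the activators, Psme1 and Psme2, which form the interferon-inducible PA28 cap, averaged 217 ± 35.5 and 180 ± 31.8 CPM, with Psme3, the nuclear PA28 subunit, at 38.6 ± 16.4 and Psme4 (PA200) at 5.43 ± 4.89 CPM (SD, n = 7). Psme2b, a copy of Psme2 that the symbol rule leaves out, had 145 liver counts, 52 of them in WT 2 beside 42 of Psme2, so the level of Psme2 is uncertain.

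**Figure D2:**
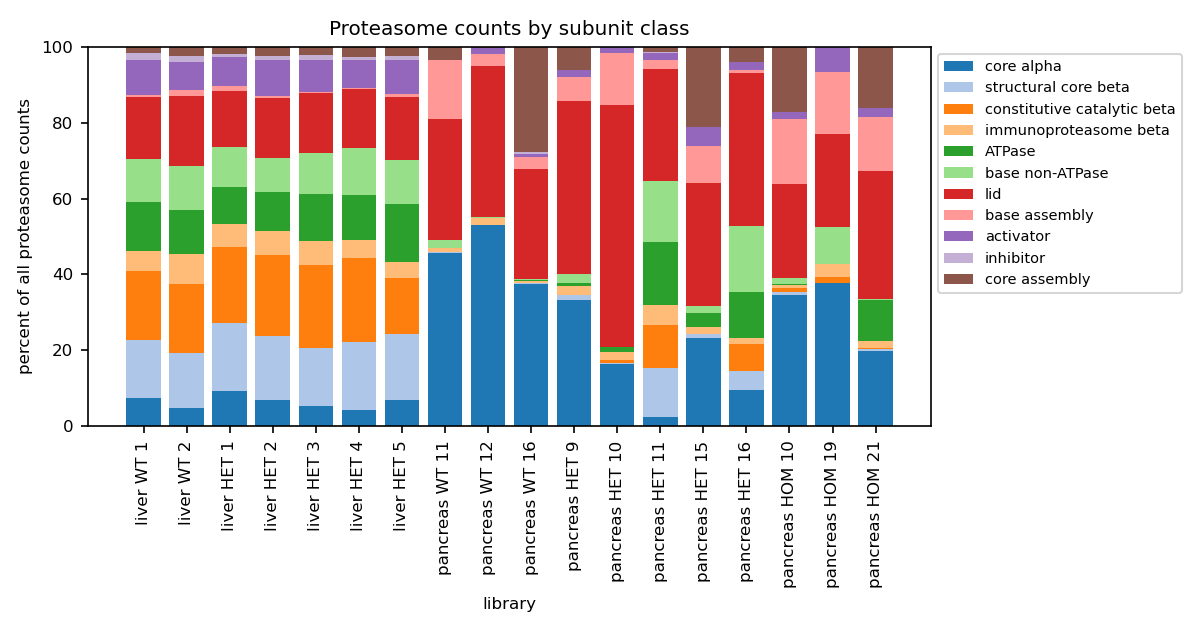
Share of each subunit class in all proteasome counts of a library (stacked bars, percent), for 7 livers and 11 pancreata. Alpha genes hold 4.16 to 9.31% in liver, 2.42% (HET 11) and 9.53% (HET 16), against 16.3 to 53.0% in the other 9 pancreata, where the constitutive catalytic class is nearly missing.

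The comparison of HET with WT liver asks whether losing 1 copy of Otub2 changes these genes outside the pancreas. With edgeR's quasi-likelihood test and Benjamini-Hochberg adjustment over all genes, 0 of the 36 members that passed the filter on low counts were called at an adjusted p under 0.05, and 0% of 4803 genes were. At an unadjusted p under 0.05 there were 5 of 36 members and 10.3% of genes, and DESeq2 called 0 members and 10 genes. The fitted log2 fold change was above 0 in 26 of the 36 and in 52.1% of genes, with a median of 0.27 for the members and 0.03 for all genes. Scaling by library totals gave 23 of 36 and a median of 0.15 beside −0.07 for all genes. Without WT 1 the median was 0.71, with 31 of 40 tested members above 0, beside 0.11 and 55.0% for all genes. The other 12 members had too few counts to be tested. In bulk tissue, fewer cells of a type and less RNA per cell cannot be told apart.

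Of the constitutive catalytic genes in liver, Psmb5 and Psmb7 stood higher in most HET livers, though not beyond the adjusted threshold. Psmb5, the chymotrypsin-like subunit (chromosome 14, 54614119 to 54618022, minus strand), measured 187 and 155 CPM in WT 1 and WT 2 and 296, 280.0, 241, 367 and 176 CPM in HET 1 to HET 5. Only HET 5 fell within the WT range, and the log2 fold change was 0.76 ± 0.35 (SE; edgeR adjusted p = 0.465, 0.147 to 0.808 over the alternatives). Psmb7, the trypsin-like subunit (chromosome 2, 38588036 to 38644087, minus strand), measured 103 and 84.6 CPM in WT and 151, 143, 112, 121 and 146 CPM in HET. All 5 HET livers lay above both WT livers, as they did for 6.95% of all genes tested. The log2 fold change was 0.63 ± 0.35 (edgeR adjusted p = 0.566, 0.414 to 0.863 over the alternatives). Psmb6 measured 657 and 598 CPM in WT and 666, 646, 767, 937 and 474 CPM in HET, so its groups overlapped (log2 fold change 0.25 ± 0.31, edgeR adjusted p = 0.835).

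The immunoproteasome genes had overlapping levels in both liver genotypes. Psmb8 (chromosome 17, 34197721 to 34201454, plus strand), which replaces Psmb5, measured 122 and 111 CPM in WT and 94.9, 115, 151, 98.2 and 93.7 CPM in HET. Psmb9 (chromosome 17, 34181987 to 34187764, minus strand), which replaces Psmb6, measured 51.5 and 78.8 CPM in WT and 91.2, 61.0, 41.7, 94.5 and 30.8 CPM in HET. Psmb10 (chromosome 8, 105935735 to 105938444, minus strand), which replaces Psmb7, measured 96.6 and 166 CPM in WT and 145, 137, 132, 117 and 95.5 CPM in HET. Groups overlapped for all 3, and the log2 fold changes of 0.03 ± 0.37, −0.02 ± 0.48 and 0.00 ± 0.38 (SE) changed sign with other scalings, filters or libraries left out. Their edgeR adjusted p were 0.987, 0.997 and 0.999. Psmb9 overlaps Tap1 on the opposite strand, and the sources used here do not say whether counting used strand. Reads from the shared stretch therefore cannot be assigned to 1 gene of the pair. Whether that stretch reaches the counted 3′ ends was not examined.

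**Figure D3:**
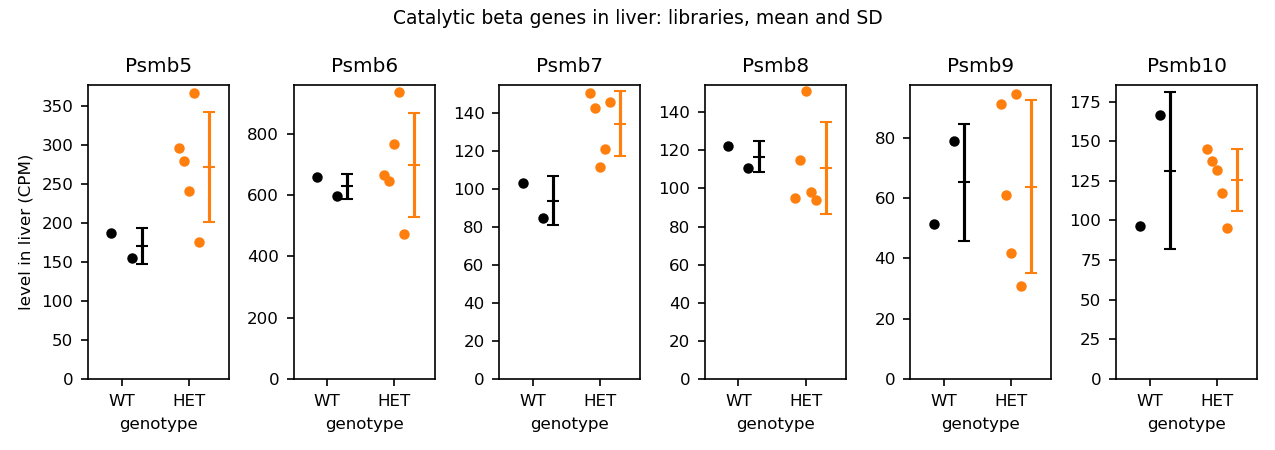
Level in CPM of the 3 constitutive (Psmb5 to Psmb7) and the 3 immunoproteasome genes (Psmb8 to Psmb10) in each WT (n = 2) and HET (n = 5) liver, with the group mean and SD beside the points and a separate linear axis from 0 for each gene. Psmb7 is the one gene here in which all HET livers exceed both WT livers, an order found for 6.95% of all genes tested.

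As a share of the 6 catalytic genes, the immunoproteasome genes made up 22.2% in WT 1 (95% Wilson interval 16.9 to 28.7, 189 counts) and 29.8% in WT 2 (25.6 to 34.4, 409 counts). In HET 1 to HET 5 the share was 22.9, 22.7, 22.5, 17.9 and 21.7%, on 459 to 1712 counts. WT 1 fell among the HET livers and WT 2 above them. Intervals cover counting error only. Pair by pair, Psmb8 made up 39.6 and 41.8% of Psmb5 plus Psmb8 in WT and 24.3, 29.1, 38.5, 21.1 and 34.8% in HET, below both WT livers in each. The interval of WT 1 ran from 27.0 to 53.7% and overlapped those of all 5 HET livers, while that of WT 2, 32.2 to 52.0%, did not reach those of HET 1 (19.0 to 30.5%) and HET 4 (14.9 to 29.2%), and no test was made. Psmb9 took 7.27 and 11.6% of its pair in WT and 5.15 to 12.0% in HET, and Psmb10 48.4 and 66.3% in WT and 39.6 to 54.1% in HET, both with overlap. Leukocyte markers, which bring immunoproteasome transcripts of their own, summed to 148 and 298 CPM in WT and 110 to 287 CPM in HET livers (4 to 5 of 7 detected), and their part in these shares was not tested.

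Among the other core genes of liver, Psmb1 had the lowest p, though not past the adjusted threshold. Psmb1 (chromosome 17, 15475021 to 15499751, minus strand), a structural beta subunit, measured 284 and 298 CPM in WT and 530.5, 417, 390.2, 544 and 377 CPM in HET. Its groups did not overlap, and the log2 fold change was 0.72 ± 0.29 (SE; edgeR adjusted p = 0.407, 0.149 to 0.775 over the alternatives). Psmb2 had 2 counts in each WT liver and 6 to 73 in HET, with no overlap in CPM either (12.9 and 5.84 against 15.3 to 43.3 CPM; log2 fold change 1.79 ± 0.75, edgeR adjusted p = 0.421). Groups without overlap, HET higher, were seen for 4 of the 36 members (11.1%: Psmb1, Psmb2, Psmb7 and Psmc2) and for 6.95% of genes. HET livers lay below both WT livers for 0 of 36 members and 11.1% of genes. Psma2, the alpha gene with the lowest p, measured 19.3 and 5.84 CPM in WT and 50.3, 30.5, 11.0, 26.5 and 43.3 CPM in HET, with HET 3 between the WT livers (log2 fold change 1.70 ± 0.76, edgeR adjusted p = 0.460). Psma7, the alpha gene with the highest level, measured 329 and 166 CPM in WT and 370.4, 261, 235, 219 and 221 CPM in HET, with 4 of 5 HET livers between the WT ones (0.19 ± 0.35, edgeR adjusted p = 0.893).

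In the 19S base of liver, the ATPase gene Psmc2 (chromosome 5, 21785283 to 21803787, plus strand) had the lowest p of all members. It measured 45.1 and 29.2 CPM in WT and 76.3, 65.1, 50.4, 79.3 and 119.8 CPM in HET, all HET above WT, with a log2 fold change of 1.22 ± 0.47 (SE; edgeR adjusted p = 0.392, 0.312 to 0.799 over the alternatives). The other ATPases did not follow as one: Psmc3, the highest, measured 161 and 172 CPM in WT and 194, 154, 213, 329 and 224 CPM in HET (0.49 ± 0.34), while Psmc1 and Psmc5 had fitted values of −0.22 ± 0.33 and −0.17 ± 0.36. Of 5 ATPases tested, 3 had positive and 2 negative fitted values. Psmd4 showed 393 and 388 CPM in WT and 379.7, 244, 434, 537 and 333 CPM in HET, around the WT level (0.06 ± 0.31, edgeR adjusted p = 0.963). Psmd1, the scaffold that holds ubiquitin receptors, had 2 and 16 counts in WT and 26, 43, 19, 16 and 211 in HET (log2 fold change 1.13 ± 0.54, edgeR adjusted p = 0.487), and the value became 0.71 without WT 1 and 2.45 without WT 2.

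Lid and chaperone genes of liver had fitted values of both signs. The lid subunit Psmd12 measured 45.1 and 23.4 CPM in WT and 57.7, 56.8, 37.3, 52.9 and 86.0 CPM in HET (log2 fold change 0.96 ± 0.49, edgeR adjusted p = 0.516), and Psmd3, the highest lid gene, 277 and 196 CPM in WT and 147, 186, 179.8, 283 and 229.5 CPM in HET (−0.12 ± 0.33). Over the lid, 4 of 7 tested genes had positive and 3 negative fitted values. Of the caps, Psme1 measured 226 and 155 CPM in WT and 229, 245, 182, 253 and 228 CPM in HET (0.36 ± 0.32, edgeR adjusted p = 0.723), and the inhibitor Psmf1 96.6 and 67.1 CPM in WT and 35.4, 48.5, 72.3, 41.6 and 61.1 CPM in HET, with HET 3 between the WT livers (−0.52 ± 0.42, edgeR adjusted p = 0.701). Psmg4, a core chaperone, had 0 and 7 counts in WT and 7, 23, 16, 12 and 44 in HET (1.28 ± 0.76, edgeR adjusted p = 0.584), and Psmg3 measured 58.0 and 61.3 CPM in WT and 39.5 to 109.6 CPM in HET (0.17 ± 0.44). Psmd9, a base chaperone that overlaps Hpd on the opposite strand, had 1 count in WT 1 and 25 in WT 2, so its fitted −0.43 ± 0.69 became 2.31 without WT 2. With only 2 WT livers, other fitted values also moved with the one left out: without WT 1 and without WT 2, Psmg4 stood at 0.70 and 7.28, Psma2 at 2.63 and 0.84, Psmd12 at 1.501 and 0.46, Psme1 at 0.74 and 0.09, and Psmf1 at −0.175 and −0.80.

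Some members that are abundant in either tissue had liver levels without a clear order between genotypes. Psmb3, a structural beta subunit, measured 238 and 254 CPM in WT and 179, 212, 224, 302 and 199 CPM in HET. The ATPase Psmc1 measured 187 and 166 CPM in WT and 115, 140.0, 140.3, 117 and 195 CPM in HET, with HET 5 above both WT livers and the rest below. Psmd7 measured 109.5 and 222 CPM in WT and 142, 97.0, 199.5, 155 and 128 CPM in HET, and Psme2 206 and 123 CPM in WT and 164, 194, 219, 181 and 170.2 CPM in HET, groups that overlapped in both.

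HET 5, the deepest liver, had the highest CPM of the 5 HET livers in 11 of the 36 tested members (30.6%) and in 32.4% of all genes tested. Of the 10 members with counts that were not tested, 5 were highest there, and the matching share over untested genes was not computed.

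Genes that work with the proteasome were read from a list of 28 (ubiquitin genes, the segregase Vcp, shuttle factors, assembly and transcription factors). In liver 17 could be tested, of which 0 were called by edgeR and 2 had an unadjusted p under 0.05, with 10 fitted values above and 7 below 0 and a median of 0.07. The 2 were Rps27a, which encodes ubiquitin fused to a ribosomal protein, with WT livers at 33.0 ± 19.4 CPM (SD, n = 2) and HET livers at 117 ± 40.1 (SD, n = 5; log2 fold change 1.81 ± 0.49, edgeR adjusted p = 0.242), and Nfe2l1, the transcription factor that raises proteasome genes when the proteasome is blocked, at 232 ± 55.3 CPM in WT and 118 ± 26.5 in HET (−0.89 ± 0.33, edgeR adjusted p = 0.382). Pomp, the chaperone of beta ring assembly, stood at 192 ± 16.9 CPM in WT and 181 ± 58.4 in HET liver. Of 8 genes for antigen processing, all tested, 0 were called and 2 had an unadjusted p under 0.05, with 3 fitted values above and 5 below 0 and a median of −0.16. These were Erap1, which trims peptides, at 6.14 ± 0.428 CPM in WT and 27.4 ± 9.42 in HET (2.27 ± 0.79, edgeR adjusted p = 0.350), and the interferon-responsive factor Irf1 at 89.5 ± 19.2 CPM in WT and 40.7 ± 10.9 in HET (−1.01 ± 0.42, edgeR adjusted p = 0.419).

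In pancreas the members fell into separate patterns in HET 11 and HET 16 on one side and the other 9 libraries, of all 3 genotypes, on the other. Both libraries lay above all other 9 in 17 of the 44 members with a pancreas count (38.6%), against 9.14% of the 20274 genes with a count, and below all of them in 2 (4.55%), against 1.70%. The 17 covered all 3 constitutive catalytic genes, 3 of 4 structural beta genes, 3 of 6 ATPases (Psmc1, Psmc3 and Psmc5), 2 of 3 non-ATPase base subunits (Psmd2 and Psmd4), 3 of 8 lid genes (Psmd6, Psmd8 and Psmd13), 1 of 8 alpha genes (Psma4), 1 of 3 immunoproteasome genes (Psmb10) and 1 of 4 activators (Psme3). The 2 below were Psma3 and Psmb8. These groups of libraries were formed from the data and both contain HET, so no test was made.

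The lid gene Psmd13 (chromosome 7, 140881968 to 140898643, plus strand) was one of the genes with this contrast, picked after its values were seen. It had 527 counts in HET 11 and 615 in HET 16 (397 and 917 CPM), 1 in HET 9 and 1 in HOM 10, and 0 in the other 7 pancreata. Its mean in liver was 174 CPM. Psmd2 had 101 and 87 counts in HET 11 and HET 16, Psmb5 33 and 10, and Psmb7 4 and 11, and all 3 had 0 in the other 9, where 0 counts allow up to 2.98 CPM over the group. Psmb6 stood at 281 and 271 CPM in HET 11 and HET 16 and had 0 to 5 counts in each of the others (mean 8.61 ± 11.4 CPM, SD, n = 9). Psmc5, an ATPase, had 278 and 80 counts against 1 in all other pancreata together. The same split held for Psmb3, with 262 and 79 counts against 3 in the other 9 together, and for Psmc1, with 204 and 169 counts against 2.

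Other members had their counts in different pancreata. Psmc2 had 36 counts in HOM 21, 51 in HET 11, 4 in HET 16 and 1 each in WT 16 and HET 15. Psme2 had 32 counts in HET 15, 31 in HET 16 and 0 to 3 in each of the rest, and Psme1 31 in HET 11, 10 in HET 16 and 0 to 8 elsewhere. Most counts of each of these genes came from 2 or 3 libraries. Psmd1 was spread more evenly, with 5, 1 and 1 counts in WT, 0, 0, 21, 14 and 9 in HET 9, 10, 11, 15 and 16, and 8, 6 and 1 in HOM, while Psmf1 had 13 counts in HET 11 and 1 in WT 16, and Psma2, Psmg1 and Psmg4 had 0 in all 11.

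The other 9 pancreata drew most of their proteasome counts from 6 genes, named after their values were seen: Psmd7, Psma1, Psma3, Psma7, Psmg3 and Psmd9. These held 62.3 to 93.0% of member counts there, but 13.4% (HET 11), 23.0% (HET 16) and 7.79 to 12.1% (7 livers) elsewhere. Psmd7 (chromosome 8, 107580381 to 107588464, minus strand), the lid partner of Psmd14, had counts in all 11 pancreata, at 739, 1512 and 515 CPM in WT, 1333, 1268, 235, 1224 and 459 CPM in HET 9, 10, 11, 15 and 16, and 249, 296 and 816 CPM in HOM 10, 19 and 21. HET 11 was the lowest of all and HET 16 lay within the range of the rest. Psma1 (chromosome 7, 114264606 to 114276118, minus strand) had 1121, 425 and 159 CPM in WT 11, 12 and 16, 465, 154, 0, 529 and 44.7 CPM in the HET pancreata in the same order, and 478, 197 and 31.1 CPM in HOM, beside 0 to 11.7 CPM in liver. Psma3 (chromosome 12, 70974621 to 70996347, plus strand) had 185 to 583 CPM in the other 9, but 10.6 (HET 11) and 2.98 CPM (HET 16), beside 5.84 to 30.8 CPM in liver.

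**Figure D4:**
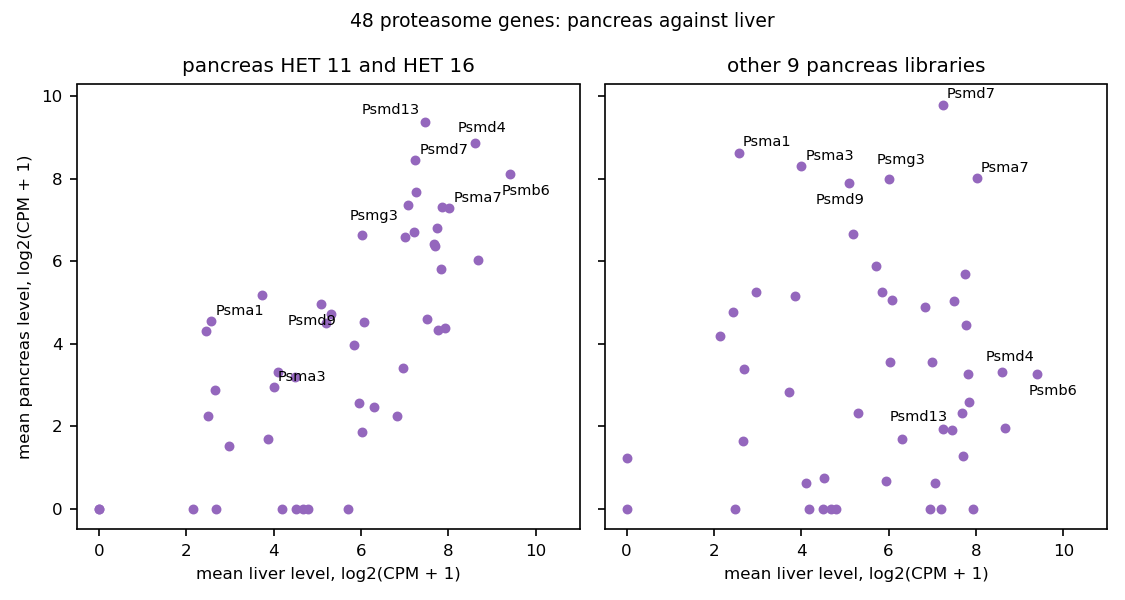
Mean level of each of the 48 genes in pancreas (vertical) against its mean in 7 livers (horizontal), as log2(CPM + 1), for HET 11 and HET 16 (left panel) and the other 9 pancreata (right panel). On the left the genes that are high in liver are mostly high in pancreas too, and on the right Psmd7, Psma1, Psma3, Psma7, Psmg3 and Psmd9 lead while Psmb6, Psmd4 and Psmd13 are low.

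Ranked over the 48 genes, the 2 libraries resembled liver and the other pancreata did not. Spearman's rho with the liver mean reached 0.741 (HET 11) and 0.677 (HET 16), against −0.199 to 0.257 for the other 9 libraries and 0.927 to 0.986 in the livers that made up the mean. Over the 4803 genes tested in liver the values were 0.280, 0.231, −0.0202 to 0.111 and 0.828 to 0.902. These are descriptions across genes, and the pancreata share depth with the pattern: HET 11 and HET 16 had 1326541 and 670588 counts, and the other 9 had 49502 to 205103. Receptor gene shares, given above, also moved with it. The 6 leading genes spanned a median of 9798.5 bases and the other members 12462.5. The part of depth, tissue makeup or receptor gene counts in these patterns was not tested.

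The genotype comparisons in pancreas ask which genes follow the loss of 1 or both copies of Otub2 in the organ that the series is about. Only 10 members passed the filter (Psma1, Psma3, Psma7, Psmd3, Psmd4, Psmd7, Psmd9, Psmd11, Psmd12 and Psmg3), and 38 did not. The 3 comparisons come from 1 fit and share groups, so they are not independent of each other. With library totals as the scaling, the all-gene median log2 fold change went from −0.20 to −0.77 in HET against WT, from 0.19 to −0.05 in HOM against WT and from 0.35 to 0.72 in HOM against HET.

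For HET against WT, edgeR called 0 of the 10 members and 0% of 3719 genes, with 1 member and 13.9% of genes at an unadjusted p under 0.05. DESeq2 called 0 members and 149 genes. Fitted values were above 0 for 7 of 10 members and 46.1% of genes (5 of 10 and 35.6% by library totals), with a median of 1.01 beside −0.20 for all genes. The median was 0.02 by library totals. With no filter it was 3.77 (41 of 44 above 0), beside 0.43 and 53.9% above 0 for all genes. Leaving out 1 library gave 0.72 (without HET 11) to 3.21 (without WT 16). The filter was rerun in each fit, so these 2 medians cover 8 and 15 members, beside 0.03 and 0.63 for all genes. The member nearest the threshold was Psmd4 (chromosome 3, 95032694 to 95042614, minus strand), with an edgeR adjusted p of 0.0518. None of the 3719 genes had a lower adjusted p, and other genes shared this value. Psmd4 had 0 counts in all 3 WT pancreata, which allows up to 9.00 CPM, 4 in HET 9, 459 in HET 11, 393 in HET 16 and 0 in HET 10 and HET 15. The mean of the HET group, 203 ± 257 CPM (SD, n = 5), was at least 22.5-fold higher than that limit, and all but 4 of its 856 counts came from HET 11 and HET 16, which carry the marker shares given above. Without the sex term Psmd4 was called (edgeR adjusted p = 0.0282, 0.0282 to 0.469 over the alternatives), and without HET 11 and HET 16 it had too few counts to be tested. Psmd4 had 0 counts in the HOM pancreata too, so it passed the filter only through the HET group, in which it is high. Its test is therefore not independent of the filter.

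The other members of that comparison varied within groups more than between them. Psmd12 had 0, 0 and 2 counts in WT and 3, 12, 0, 23 and 0 in HET 9, 10, 11, 15 and 16 (log2 fold change 3.50 ± 2.87, SE; edgeR adjusted p = 0.738). Psma1, whose values stand above, had −0.88 ± 1.77 (edgeR adjusted p = 0.990). Psmg3 measured 98.5, 15.8 and 509 CPM in WT and 202, 0, 35.4, 597 and 163 CPM in HET (1.16 ± 2.16, edgeR adjusted p = 0.977), and Psmd9 456, 142 and 42.4 CPM in WT and 202, 423, 31.7, 332 and 28.3 CPM in HET (0.60 ± 2.02, edgeR adjusted p of 1). In each of these genes the HET values enclosed or overlapped the WT values. Without HET 11 and HET 16, an alternative chosen after the data were seen, edgeR called 0 of 7 members tested, with 0 at an unadjusted p under 0.05.

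HOM against WT gave 0 of 10 members called by edgeR and 0% of genes, with 0 members and 4.97% of genes at an unadjusted p under 0.05. DESeq2 called 0 members and 5 genes. Fitted values were above 0 for 4 of 10 members and 53.8% of genes, with a median of −0.36 beside 0.19 for all genes. The direction was not stable. With no filter 29 of 44 members were above 0 with a median of 0.50, beside 55.0% and 0.39 for all genes. At a mean of at least 10 CPM 21 of 31 were, with a median of 0.43, beside 54.3% and 0.28 for all genes. Leaving out 1 library gave −0.73 (without HET 10, 8 members tested) to 0.41 (without HOM 21, 16 tested), beside 0.25 and 0.09 for all genes. Psmd4, 1 of the 4, had 0 counts in both groups, and without it the median was −0.45. The lid gene Psmd3 came first by p, with 16, 6 and 1 counts in WT and 0, 0 and 3 in HOM 10, 19 and 21 (197, 94.5 and 5.31 against 0, 0 and 23.3 CPM), so the groups overlapped (log2 fold change −3.33 ± 2.39, SE; edgeR adjusted p of 1). Psma7 measured 12.3, 1339 and 212 CPM in WT and 176, 0 and 155 CPM in HOM (−2.17 ± 2.00, edgeR adjusted p of 1), and became 0.39 without WT 12.

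For HOM against HET, edgeR called 0 of 10 members and 0% of genes, with 1 member and 11.0% of genes at an unadjusted p under 0.05. DESeq2 called 0 members and 27 genes. Fitted values were above 0 for 1 of 10 members and 58.9% of genes (2 of 10 and 67.1% by library totals), with a median of −1.14 beside 0.35 for all genes. The median was −0.54 by library totals and −3.13 with no filter, beside 0.72 and −0.40 for all genes. Leaving out 1 library gave −0.73 (without HET 16, 8 members tested) to −4.78 (without HOM 10, 15 tested), beside 0.41 and −0.12 for all genes. Psmd4 again had the lowest p, with 0 counts in all 3 HOM, which allows 7.80 CPM (edgeR adjusted p = 0.112, 0.0684 to 0.660 over the alternatives). As above, it had passed the filter through the HET group alone. Psmd3 had 3, 4, 140, 4 and 78 counts in HET 9, 10, 11, 15 and 16 against 0, 0 and 3 in HOM (60.6, 51.2, 105.5, 24.6 and 116 against 0, 0 and 23.3 CPM). All HET lay above all HOM, but narrowly: HET 15 had 24.6 CPM on 4 counts, and the highest HOM library 23.3 CPM on 3. The share of all genes with this order was not computed, so the order is given only as a description. For Psmd3 the log2 fold change was −5.11 ± 2.64 (SE, edgeR adjusted p = 0.464, 0.276 to 0.999 over the alternatives). Without HET 11 and HET 16, 2 of 7 tested members had positive fitted values, and edgeR called 0, with 0 at an unadjusted p under 0.05.

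Partner genes were as thinly covered in pancreas. Of the 28, 4 could be tested, and edgeR called 0 of them in each comparison. Vcp had 1 unadjusted p under 0.05, in HET against WT, with the WT group at 35.4 ± 61.3 CPM (SD, n = 3), the HET group at 737 ± 673 (SD, n = 5) and the HOM group at 246 ± 109 (SD, n = 3; HET against WT edgeR adjusted p = 0.234). Usp14, the deubiquitinase that docks on the proteasome base, stood at 37.1 ± 51.2, 176 ± 157 and 554 ± 477 CPM in the same order, spreads that overlap.

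Of the 6 catalytic genes, Psmb8 had counts in all of the other 9 pancreata and Psmb10 in 6, against 4 for Psmb6, 3 for Psmb9 and 0 for Psmb5 and Psmb7. The constitutive set, Psmb5 to Psmb7, had 0 counts in all 3 WT pancreata (up to 9.00 CPM allowed), 5, 1 and 1 in the HOM pancreata (17.3 ± 8.57 CPM, SD, n = 3), all of Psmb6, and 127 ± 163 CPM in HET (SD, n = 5), of which HET 11 and HET 16 had 309 and 303 CPM. Psmb8 had 1 to 4 counts in each of the other 9 pancreata (28.6 ± 24.7 CPM, SD, n = 9), and 6 and 2 in the far deeper HET 11 and HET 16 (4.52 and 2.98 CPM). By genotype Psmb8 averaged 21.6 ± 22.5 CPM (WT, SD, n = 3), 24.0 ± 33.0 CPM (HET, SD, n = 5) and 26.8 ± 15.3 CPM (HOM, SD, n = 3), differences smaller than the spread. Leukocyte markers summed to 79.9 to 1071 CPM in the other 9 (3 to 5 of 7 detected), while HET 11 and HET 16 had 22.6 to 55.2 CPM (3 to 4 of 7), and their part was not tested.

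As a share of the 6 catalytic genes, Psmb8 to Psmb10 made up all of the 2, 5 and 2 counts in WT 11, 12 and 16, and 44.4 to 100% of 3 to 13 counts in the HOM and the 3 other HET pancreata. Intervals on so few counts were wide, such as 34.2 to 100% in WT 11. HET 11 had 31.0% (27.4 to 34.8, 594 counts) and HET 16 17.1% (12.9 to 22.4, 245 counts), values on either side of the livers' 17.9 to 29.8%. Summed by genotype the share was 100% of 9 counts in WT, 28.7% of 863 in HET and 65% of 20 in HOM, and HET without HET 11 and HET 16 gave 91.7%. Within the pairs, Psmb10 outweighed Psmb7 in both deep pancreata, with 177 against 4 counts in HET 11 (97.8%) and 37 against 11 in HET 16 (77.1%), beside 39.6 to 66.3% in liver. Psmb9 went the other way, with 1 against 373 counts of Psmb6 in HET 11 and 3 against 182 in HET 16, below the 5.15 to 12.0% of liver. HET 15 had 12 Psmb9 counts and 0 of Psmb6.

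**Figure D5:**
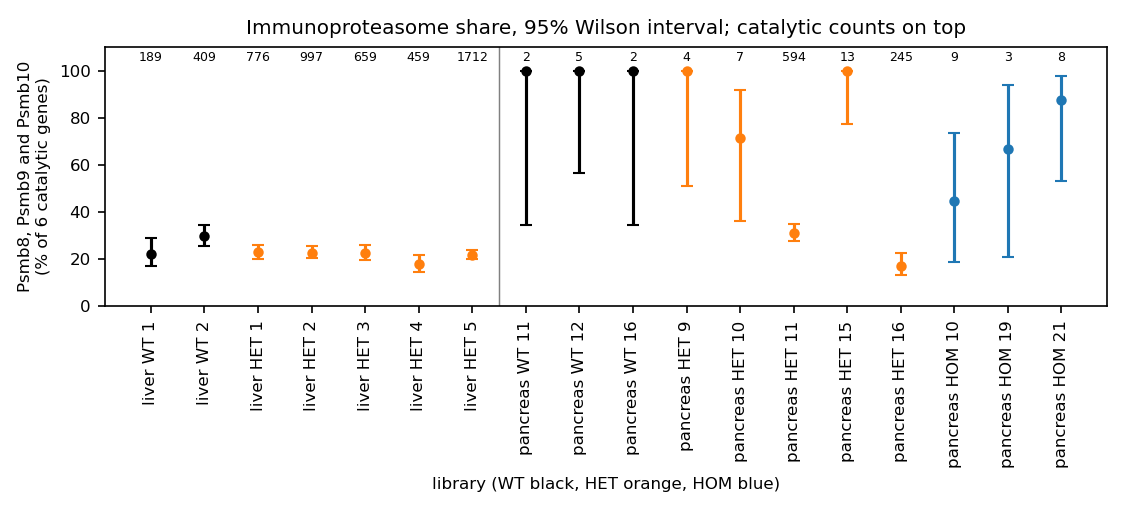
Share of Psmb8, Psmb9 and Psmb10 in the counts of the 6 catalytic beta genes for each library (points, percent) with its 95% Wilson interval, and the number of catalytic counts written on top. Livers lie between 17.9 and 29.8% with narrow intervals, HET 11 and HET 16 at 31.0 and 17.1%, and the other 9 pancreata between 44.4 and 100% on 2 to 13 counts.

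Copies and neighbours limit some of these values. Of the 48 members, 22 overlap another annotated gene, and Psmd13 shares its stretch with Sirt3 and Psmb7 with Nek6 on the opposite strand. The pseudogene Psmb5-ps had 142 pancreas counts, 66 of them in HET 15, beside 43 of Psmb5, and Psme2b had 32.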

How the data were processed

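Libraries were prepared from RNA of whole pancreas and liver with a bulk adaptation of MARS-seq, which counts 3′ ends, per the labels. Reads were handled with cutadapt and STAR on the mouse build mm10, per the submitters' processing notes; the sources used here do not give versions, the counting tool or strand use. Each deposited file, 1 per tissue, is a matrix of raw-scale counts that the authors call corrected without saying how, so the tests assume values close to counts.

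All columns were mapped to a labelled sample. CPM is the count scaled to a library total of 1000000. The quasi-likelihood test of edgeR (version 4.0.16, R 4.3.3; filterByExpr, TMM scaling, robust fit) was run over all genes of a tissue, with sex as a covariate in pancreas, and Benjamini-Hochberg adjustment at 0.05. DESeq2 1.42.0, other scalings, other filters, fits without the sex term and libraries left out were alternatives. Positions are from GENCODE mouse release M21 (mm10), which all 48 members matched. Shares carry 95% Wilson intervals, and a count of 0 was given a limit of 3 counts.

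The members and lists were chosen with earlier results of these data known. Full values are given for the 6 catalytic genes and, in each role class, for the member with the highest mean in a tissue and the one with the lowest p in a comparison. Psma3, Psmb2, Psmc5, Psmd2, Psmd13, Psmd14, the activators Psme3 and Psme4, and the partner genes given with values were picked after their values were seen. Some partner genes are not reported here.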

Additional observations from a re-analysis of the deposited data

Results flagged for a closer look

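Within a group of 5 libraries, a library was singled out where its gap to the nearest other exceeded 0.71 of the group's range, which chance gives in about 1 in 20 groups. Over all members with a count in the group, the rule picked 4 of 46 in HET liver and 18 of 43 in HET pancreas. Only those among the genes given in full, and the shares, are listed here. In HET liver the rule picked Psma7 in HET 1 (370.4 CPM, highest), the base scaffold Psmd1 in HET 5 (125 CPM, highest) and the immunoproteasome share of HET 4 (17.9%, lowest). In HET pancreas it picked Psmb1 (110.1 CPM), Psmc2 (38.4 CPM) and the inhibitor Psmf1 (9.80 CPM) as highest in HET 11, and Psmb7 (16.4 CPM) as highest in HET 16. In HET 15 it picked Psmb9 (73.8 CPM), Psmd1 (86.1 CPM) and the activator Psme2 (197 CPM), which rested on 12, 14 and 32 counts. The rate of 1 in 20 does not hold where most libraries are at 0 counts: Psmf1 had counts in HET 11 alone of the 5 HET pancreata, so its gap is the whole range.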

How the results depend on the processing

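Of 482 values for single genes under alternatives, 448 kept sign and side of the threshold, 33 changed sign and 1 newly passed it. No member was called under any alternative except 1 in pancreas HET against WT with no sex term (Psmd4, log2 10.14, which is no bound, edgeR adjusted p = 0.0282). Over all genes, liver calls went from 0 to 10 (DESeq2), 57 (no filter) and 6 (mean of at least 10 CPM), and 0 to 6 with 1 library left out. Pancreas HET against WT gave 149 (DESeq2), 23 (library totals), 146 (no sex term), 9 (without HET 11 and HET 16) and 0 to 92 with 1 library left out. HOM against WT gave 5 (DESeq2), 5 (only the groups compared), 13 (without HET 11 and HET 16) and 0 to 4. HOM against HET gave 27, 7 (without both) and 0 in each left-out fit. Members called stayed at 0 in all left-out fits.

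Signs changed in liver for Psmb8 (−0.0864 by library totals, −0.14 to 0.19 with 1 library left out), Psmb10 (−0.0116 by DESeq2, −0.0038 by its size factors, −0.12 by library totals, −0.22 to 0.46), Psmb9 (0.11 with no filter, 0.0206 at a mean of at least 10 CPM, −0.19 to 0.35) and Psmd9 (−1.05 to 2.31). In pancreas they changed for Psmd9 in HET against WT (−0.0027 to 1.63), Psmd9 (0.22 with no filter, −0.80 to 0.89), Psma7 (−2.86 to 0.39) and Psmg3 (−0.23 to 2.40) in HOM against WT, and Psma7 (0.55 without HET 11 and HET 16, −2.91 to 0.43) and Psmg3 (0.73 by library totals, 0.53 without both, −0.81 to 0.57) in HOM against HET. The cause was not tested.

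The proteasome share of HET pancreas became 0.977% of TMM-scaled size and 0.235% over tested members only, and its immunoproteasome share 91.7% without HET 11 and HET 16. With 1 library left out, the proteasome share ran from 0.460 to 0.517% and 0.525 to 0.561% in WT and HET liver, and from 0.237 to 0.367%, 0.330 to 0.371% and 0.183 to 0.257% in WT, HET and HOM pancreas. The immunoproteasome share ran from 22.2 to 29.8% and 21.6 to 22.3% in liver, stayed at 100% in WT pancreas, and ran from 23.8 to 33.3% and 50 to 81.8% in HET and HOM pancreas. It could not be computed over tested members in pancreas, where none of the 6 genes passed the filter.

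Replicate numbers are shared by WT and HET (11 and 16 in pancreas, 1 and 2 in liver). Deviations of same-numbered libraries from their group means correlated at −0.0283 to −0.0027. These values cannot settle whether a number stands for a shared origin, since the deviations of 2 WT livers mirror each other by construction. With the replicate block, 41 genes in liver and 157 in pancreas HET against WT were called and 0 members in either, and the liver values of Psmd9, Psmb8 and Psmb9 were 0.18, −0.0167 and 0.26. The filter on low counts kept 38 members in pancreas and 12 in liver out of the tests.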
